A study of Mus musculus with 7 samples.

Results

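The enzymes of the pentose phosphate pathway were examined by name in sorted mouse beta cells. The set was fixed as 7 genes, and 6 of them (Pgls, Pgd, Rpia, Rpe, Tkt and Taldo1) had a probe set that names 1 gene, out of 19938 genes measured. Each of the 6 had a single probe set. G6pdx, which encodes the glucose 6-phosphate dehydrogenase of the first step, was not analysed here.

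The pathway branches from glycolysis at glucose 6-phosphate. Its oxidative branch makes NADPH, the reducing agent that serves glutathione recycling and lipid synthesis, together with ribulose 5-phosphate. Its non-oxidative branch interconverts sugar phosphates, giving ribose 5-phosphate for nucleotides or returning carbon to glycolysis. In beta cells, which take up glucose in proportion to its blood level, the pathway shares its substrate with the glycolysis that triggers insulin release.

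All 7 mice were on the ICR background, carried an insulin-Cre transgene and a Rosa26-LSL-YFP reporter, and were 25 days old. The weaned group of 3 mice had been weaned early, at day 18, and the suckling group of 4 had not. Each mouse gave 2000 to 6000 YFP+ cells and 1 Affymetrix array, read here as log2 intensity, so that a difference of 1 is a doubling of signal. The reporter marks every cell whose lineage has had insulin-Cre activity, and both groups carry the same alleles. The comparison asks how beta cells of the same age differ after premature weaning.

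Array medians ran from 14.1 to 14.9 in linear intensity. Of 10 measured beta cell markers, 4 had a higher and 6 a lower weaned mean, with a median log2 difference of -0.02. Pdx1, at 0.33 (unadjusted p = 0.0344, limma), was the only one of the 10 at an unadjusted p under 0.05. Ucn3 stood at 10.46 ± 0.20 log2 units (SD, n = 3) in weaned and 10.49 ± 0.12 (n = 4) in suckling mice. Mafa was the dimmest of the 10, at means of 5.83 and 6.01. The glucagon gene Gcg was bright, at 11.95 ± 0.32 and 12.13 ± 0.16. Other islet hormone genes were bright too, with means of 11.80 and 12.01 for Sst, 11.45 and 11.19 for Ppy, and 11.72 and 11.72 for Pyy. The insulin gene Ins2, a beta cell marker, measured less than these hormone genes, at means of 8.25 and 8.27. Of the further markers of other islet cells, Ttr was bright, at means of 10.65 in weaned and 10.42 in suckling mice. Irx1, Irx2, Hhex and Ghrl were dimmer, with group means of 3.77 to 5.20. Markers of acinar cells, the enzyme-secreting cells of the exocrine pancreas, differed widely between arrays. Of 20 listed, 17 were measured and all 17 had a lower mean in weaned mice. Their mean level ran from 3.72 to 6.19 log2 units in weaned mice and from 4.11 to 8.09 in suckling mice, with suckling replicates 2 and 9 highest, and none of the 17 lay in the background range in both groups. Of 8 measured duct markers 5 had a lower weaned mean, 3 of them at an unadjusted p under 0.05 (limma). Of 8 mesenchymal markers 5 were lower, 2 at such a p, where 3.19% of all genes were. Of 12 leukocyte markers 6 were higher, 2 at such a p, where 4.39% of all genes were. Of 10 endothelial markers 5 were higher, none at such a p. None of these markers passed an adjusted p of 0.05. Weaned replicate 12 stood apart in giving signal for neither Xist nor Y-linked genes. Of the 7 arrays, 4 lacked Xist signal and 4 lacked Y-linked signal, so the series holds arrays of both sexes. How the sexes fall between the groups is not given here, and the fit had no term for sex. The arrays without the one or the other signal put the background at 1.80 to 3.15 log2 units. The array descriptions carry one code on the weaned and another on the suckling arrays, so a factor behind these codes and weaning itself cannot be told apart.

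All 6 enzymes had a higher mean in weaned than in suckling mice, though for Pgd the sign turned after quantile normalization and after centring of the arrays. None passed an adjusted p of 0.05 (adjusted p from 0.511 for Taldo1 to 0.989 for Pgd, limma, Benjamini-Hochberg over all 19938 genes), whereas 0.015% of all genes did. The median log2 difference of the 6 was 0.22, beside 0.00047 for all genes, and 50.1% of all genes had a higher mean in weaned mice. Both enzymes with an unadjusted p under 0.05 belong to the non-oxidative branch. They were Taldo1 and Tkt, where 4.39% of all genes had such a p and a higher weaned mean. In Taldo1 alone of the 6 did the groups not overlap, as in 3.9% of all genes on that side. In sorted bulk RNA, fewer cells that express a gene and less RNA per cell cannot be told apart.

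**Figure D1:**
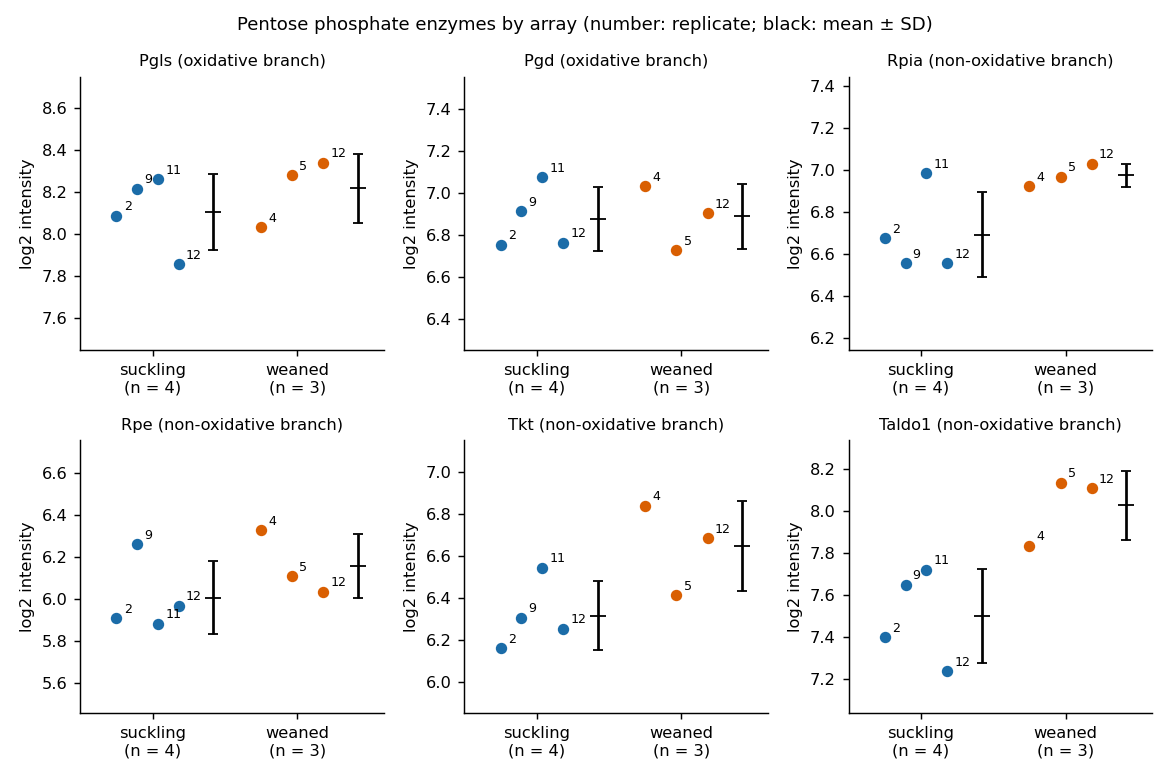
Log2 intensity (vertical axis, 1.3 units high in every panel) of 6 pentose phosphate enzymes on each of 7 arrays, with replicate numbers beside the points and mean ± SD in black. The weaned points of Taldo1 lie at 7.84 to 8.14, above the suckling points at 7.24 to 7.72, while the groups overlap in the other panels.

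Pgls encodes 6-phosphogluconolactonase, which opens the lactone made by glucose 6-phosphate dehydrogenase. It measured 8.03, 8.28 and 8.34 log2 units in weaned mice 4, 5 and 12. Suckling mice 2, 9, 11 and 12 gave 8.09, 8.22, 8.26 and 7.86. Suckling replicate 12 is the lowest array, weaned replicates 5 and 12 lie slightly above the suckling range, and weaned replicate 4 lies within it. The difference was 0.11 (SE 0.14, 95% interval -0.19 to 0.42, limma), and 0.03 to 0.21 with any 1 array left out.

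Pgd encodes 6-phosphogluconate dehydrogenase, which makes the second NADPH of the oxidative branch. It measured 7.03, 6.73 and 6.91 log2 units in weaned mice 4, 5 and 12, against 6.76, 6.91, 7.08 and 6.76 in suckling mice 2, 9, 11 and 12. The highest array is suckling replicate 11, the lowest is weaned replicate 5, and the groups overlap fully. The difference was 0.012 (SE 0.13), with an interval of -0.28 to 0.30, or 0.83-fold to 1.23-fold. Its sign turned in 8 of 17 alternative analyses, with differences between -0.06 and 0.09.

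Rpia encodes ribose 5-phosphate isomerase, which makes the precursor of nucleotides. Its weaned arrays lay close together at 6.92, 6.97 and 7.03 log2 units, and suckling replicates 2, 9 and 12 lay below them at 6.67, 6.55 and 6.56. Suckling replicate 11, at 6.98, fell among the weaned arrays. The difference was 0.28 (SE 0.13, interval -0.01 to 0.58, unadjusted p = 0.0593, limma). With 1 array left out it was 0.24 to 0.38, and the unadjusted p was 0.0103 without suckling replicate 11 and 0.0792 to 0.138 without any of the other arrays.

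Rpe encodes ribulose-phosphate epimerase, which turns ribulose 5-phosphate into xylulose 5-phosphate, the donor for transketolase. It measured 6.33, 6.11 and 6.03 log2 units in weaned mice 4, 5 and 12, against 5.91, 6.26, 5.88 and 5.97 in suckling mice 2, 9, 11 and 12. Weaned replicate 4 and suckling replicate 9 are the high arrays and the groups overlap. The difference was 0.15 (SE 0.13, interval -0.15 to 0.45). Leaving out suckling replicate 9 gave 0.24, and leaving out weaned replicate 4 gave 0.07.

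Tkt encodes transketolase, the thiamine-dependent enzyme that moves carbon units between sugar phosphates and links the pathway to glycolysis. It measured 6.84, 6.41 and 6.69 log2 units in weaned mice 4, 5 and 12, against 6.16, 6.31, 6.54 and 6.25 in suckling mice 2, 9, 11 and 12. The overlap comes from a single pair of arrays, weaned replicate 5 below suckling replicate 11. The difference was 0.33 (SE 0.14), 1.26-fold with an interval of 1.01-fold to 1.57-fold, at an unadjusted p of 0.0432 and an adjusted p of 0.651 (limma). The unadjusted p was under 0.05 in 6 of 17 alternatives and ran from 0.015 to 0.207. Leaving out weaned replicate 4 gave 0.23, and leaving out weaned replicate 5 gave 0.45.

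Taldo1 encodes transaldolase, the other carbon-transferring enzyme of the non-oxidative branch. It measured 7.84, 8.14 and 8.11 log2 units in weaned mice 4, 5 and 12, against 7.40, 7.65, 7.72 and 7.24 in suckling mice 2, 9, 11 and 12. Every weaned array lies above every suckling array, with a gap of 0.11 between weaned replicate 4 and suckling replicate 11. The difference was 0.52 (SE 0.15), 1.44-fold with an interval of 1.14-fold to 1.81-fold, at an unadjusted p of 0.00595, which ranked 228 of 19938 genes. The adjusted p was 0.511 (limma), and 0.344 to 0.902 over the alternatives. With 1 array left out the difference was 0.44 to 0.62, and its unadjusted p was under 0.05 in all 17 alternatives.

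The 4 enzymes of the non-oxidative branch thus differed by 0.15 to 0.52 and the 2 measured enzymes of the oxidative branch by 0.012 and 0.11. Whether the branches differ from each other was not tested.

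**Figure D2:**
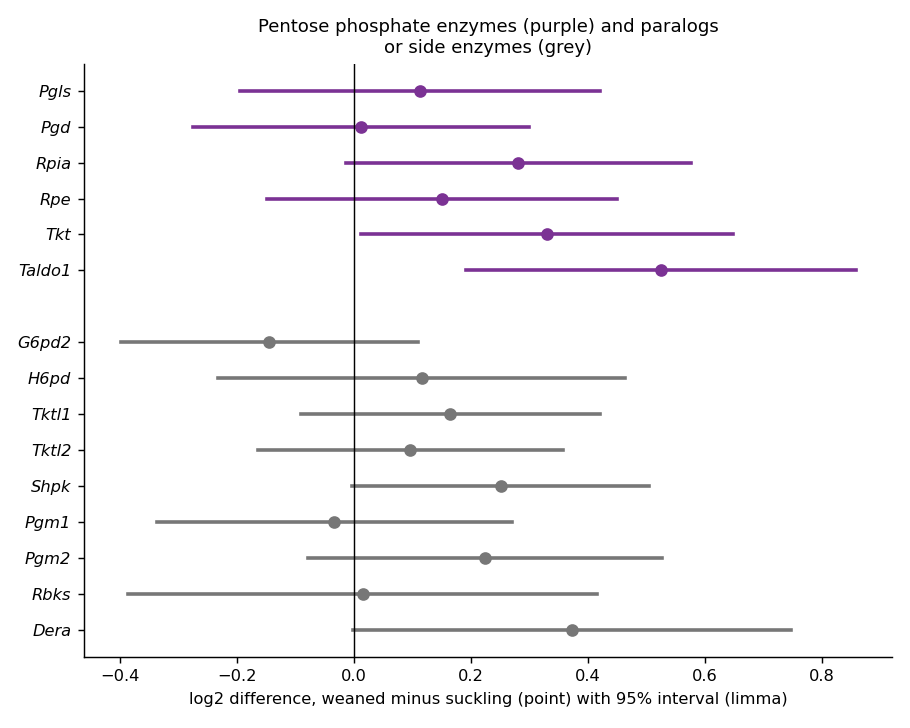
Log2 difference, weaned minus suckling, with its 95% interval from limma (horizontal axis) for 6 pentose phosphate enzymes and 9 paralogs or side enzymes. The intervals of Taldo1 and Tkt, unadjusted for the number of genes, start above 0, and those of the other genes hold 0.

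The upstream sequences of Taldo1 and Tkt are shown because these have the widest differences among the 6 enzymes. They are the 250 bases before the RefSeq transcription start (GRCm38.p6, plus strand), at chr7:141391910-141392159 for Taldo1 and chr14:30548881-30549130 for Tkt, with capitals marking matches to a GC box (GGGCGG) or a CCAAT box (CCAAT) on either strand.
Taldo1: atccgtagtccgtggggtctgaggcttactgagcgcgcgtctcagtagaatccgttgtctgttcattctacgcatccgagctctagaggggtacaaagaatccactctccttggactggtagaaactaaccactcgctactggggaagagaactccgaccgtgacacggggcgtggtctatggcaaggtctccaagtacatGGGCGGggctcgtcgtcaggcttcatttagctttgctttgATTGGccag
Tkt: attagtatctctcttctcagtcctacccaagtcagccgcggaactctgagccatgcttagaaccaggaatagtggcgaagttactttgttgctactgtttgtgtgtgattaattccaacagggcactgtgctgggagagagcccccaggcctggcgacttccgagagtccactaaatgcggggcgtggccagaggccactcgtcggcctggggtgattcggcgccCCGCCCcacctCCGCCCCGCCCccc
Taldo1 has 1 GC box, starting 49 bases before the start site, and 1 CCAAT box on the opposite strand, starting 9 bases before it, which do not overlap. Tkt has 3 GC boxes on the opposite strand, starting 25, 14 and 9 bases before the start site, of which the last pair overlap by 1 base, and no CCAAT box. Of 32851 RefSeq windows of this length, 32.7% hold the GC box and 33.8% the CCAAT box. An E-box (CACGTG), the core of the element read by the glucose-responsive factor ChREBP, was found in 6.02% of all windows, and the antioxidant response element core (TGACNNNGC), read by NRF2, in 10.2%, searched on both strands. Neither was present in these windows of the 6 enzymes, which says only that these letters are not in these 250 bases. The Rpia, Rpe and Pgls windows hold 1, 2 and 1 GC boxes, and 1 of the 2 windows of Pgd holds 1 GC box and 2 CCAAT boxes.

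Array by array, the profiles of the enzymes were alike on some arrays and differed on others. Centred on each gene's mean over the 7 arrays, the median of the 6 enzymes reached 0.13, 0.08 and 0.20 log2 units in weaned mice 4, 5 and 12. It was -0.15, -0.02, 0.10 and -0.23 on suckling replicates 2, 9, 11 and 12. Suckling replicate 11 lay within the weaned range and was the highest suckling array for 5 of the 6 enzymes, all but Rpe. On suckling replicates 2 and 12 none of the 6 enzymes exceeded its own mean. Among the 15 pairs of enzymes the centred profiles lay closest for Pgls and Rpia, with a mean absolute difference of 0.11 log2 units over the 7 arrays. They lay farthest apart for Rpe and Taldo1, at 0.28.

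**Figure D3:**
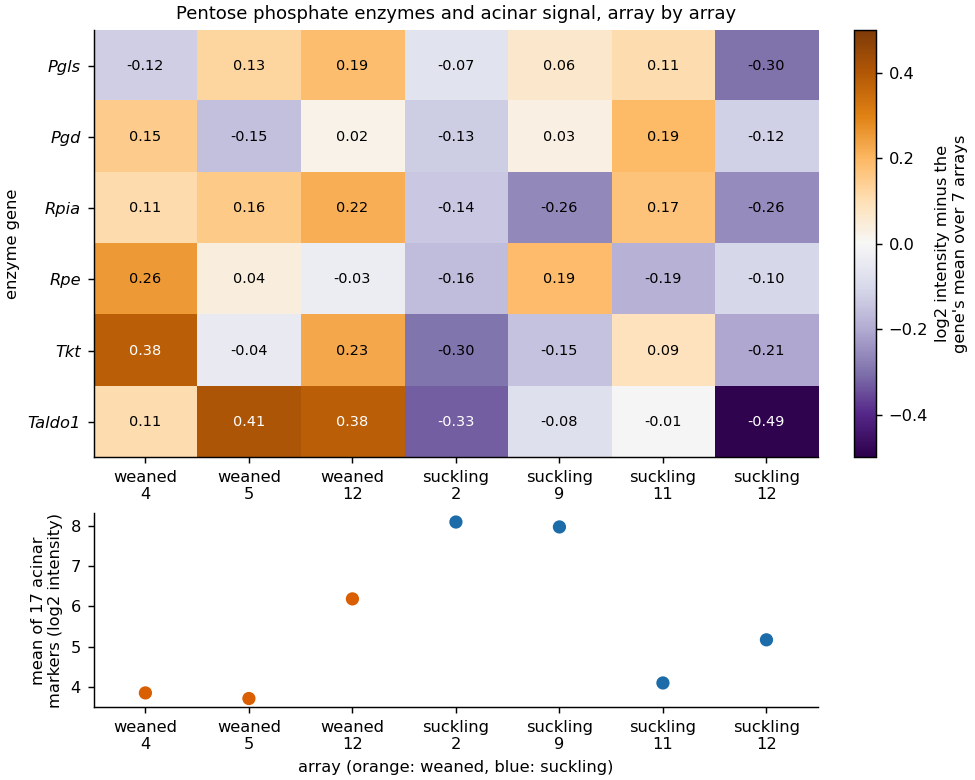
Upper panel, log2 intensity of each enzyme minus its mean over 7 arrays (colour and number), by array. Lower panel, mean log2 intensity of 17 acinar markers on the same arrays. Suckling replicates 2 and 9 have the most acinar signal (8.09 and 7.97), with centred enzyme medians of -0.15 and -0.02. Suckling replicates 11 and 12, at acinar levels of 4.11 and 5.17, both lie between the lowest and highest weaned arrays. Their centred enzyme medians are 0.10 and -0.23. Weaned replicates 4, 5 and 12 have acinar levels of 3.86, 3.72 and 6.19 and centred enzyme medians of 0.13, 0.08 and 0.20.

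The enzymes were also compared with the acinar signal taken into account. With the acinar level as a covariate, Taldo1 differed by 0.53, Tkt by 0.26, Rpia by 0.21, Rpe by 0.18, Pgls by 0.15 and Pgd by -0.03. Without suckling replicates 2 and 9 the differences were 0.55, 0.25, 0.20, 0.23, 0.16 and -0.03 in the same order. In both analyses the values of Taldo1, Rpe and Pgls were at or above those with all arrays and no covariate, and the values of Tkt, Rpia and Pgd were below them. Without weaned replicate 12, the array with neither Xist nor Y-linked signal, Taldo1 differed by 0.48 and Tkt by 0.31.

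By mean absolute difference of centred profiles over the 7 arrays, the protein-coding genes most like Taldo1 were H2ac4, a histone H2A gene, at 0.068 log2 units, Thoc3, a subunit of the THO complex, at 0.080, and Taf4b, a TFIID subunit, at 0.087. Their own differences were 0.42, 0.53 and 0.38. Differences in the same direction follow from the way these genes were picked, because the profiles hold the group difference. The enzyme nearest to Taldo1 in this measure was Rpia, at 0.17.

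Enzymes beside the pathway were measured with 9 genes, of which 7 had a higher weaned mean and none passed the adjusted threshold or an unadjusted p of 0.05. Their median difference was 0.12. Dera, the deoxyribose-phosphate aldolase, differed by 0.37 (SE 0.17, unadjusted p = 0.0504) and Shpk, the sedoheptulose kinase that feeds the non-oxidative branch, by 0.25 (SE 0.11, unadjusted p = 0.0519), with limma. The Shpk arrays did not overlap, at 4.43 to 4.56 log2 units in weaned and 4.07 to 4.37 in suckling mice. The same held for 3.9% of all genes on that side. H6pd, which runs the first oxidative steps in the endoplasmic reticulum, differed by 0.12 (SE 0.15). Pgm1 and Pgm2, of the phosphoglucomutase family, differed by -0.03 and 0.22, and the ribokinase gene Rbks by 0.015. Leaving out weaned replicate 4 gave 0.21 for Dera and 0.12 for Pgm2, and leaving out weaned replicate 12 gave 0.34 for Pgm2.

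Of the paralogs, the transketolase-like genes were dim. Tktl2 had both group means in the background range (2.32 and 2.23 log2 units), and Tktl1 was just above it in weaned mice (3.18) and within it in suckling mice (3.02). G6pd2, an intronless copy of G6pdx, measured 4.73 ± 0.10 log2 units (SD, n = 3) in weaned and 4.88 ± 0.11 (n = 4) in suckling mice, a difference of -0.14 (SE 0.11). Its sequence is so close to that of G6pdx that the source of this signal is uncertain.

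Genes that use ribose 5-phosphate for nucleotides were split, with 12 of 20 measured members higher and 8 lower in weaned mean and a median of 0.04. At an unadjusted p under 0.05 (limma) 1 was higher and 3 were lower, where 3.19% of all genes were lower at that threshold. The higher one was Prps1l1, named after its value was seen, with both group means (2.69 and 2.28 log2 units) in the background range. Ppat, the first enzyme of purine synthesis, differed by -0.45 (SE 0.15), and Pfas, a later enzyme of the same route, by -0.36 (SE 0.12), both with an adjusted p of 0.572 (limma). Pfas measured 4.67 to 4.72 log2 units in weaned mice and 4.96 to 5.33 in suckling mice. Its groups did not overlap, as in 3.43% of all genes on that side.

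Hexose phosphate enzymes at the entry and exit of the pathway had a median of 0.10, with 15 of 19 measured members higher. Of the 19, 3 had both group means in the background range. An unadjusted p under 0.05 (limma) with a higher weaned mean was found in 4.39% of all genes. Among the 19 members 1 had such a p, Aldoc, an aldolase, at 0.44 (SE 0.17). Fbp2, a fructose bisphosphatase, was next at -0.38 (SE 0.19), with a weaned mean of 2.79 that lies in the background range. Aldoc differed by 0.29 without weaned replicate 4, and Fbp2 by -0.20 without suckling replicate 2. Other enzymes that make NADPH had a median of 0.11 with 8 of 11 higher. Mthfd1, a folate enzyme, differed by 0.29 (SE 0.11) and the malic enzyme gene Me3 by 0.17 (SE 0.10), and in both the groups did not overlap, as in 3.9% of all genes on that side. Me3 is dim, at 3.42 to 3.49 log2 units in weaned and 3.22 to 3.36 in suckling mice, just above the background range.

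Of the NADPH-using enzymes, 12 of 13 measured members had a higher weaned mean, with a median of 0.14. Nqo1, a quinone reductase, differed by 0.53 (SE 0.23), and weaned replicate 4 carries much of it, with 4.37 log2 units beside 3.43 on both other weaned arrays and 2.93 to 3.36 in suckling mice. Leaving out weaned replicate 4 gave a difference of 0.22. Nqo1 is dim, with a suckling mean of 3.21 just above the background range and suckling replicate 9 within it. Dhcr7, a sterol reductase, differed by 0.31 (SE 0.14), and by 0.20 without suckling replicate 12. Regulators of the pathway had a median of 0.06 with 7 of 11 higher and none at an unadjusted p under 0.05 (limma), led by the deacylase gene Sirt5 (0.36, SE 0.18) and Bach1, a repressor of antioxidant genes (-0.17, SE 0.11). Sirt5 differed by 0.20 without weaned replicate 12 and by 0.58 without weaned replicate 5, and Bach1 by -0.088 without weaned replicate 5.

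Genes of DNA replication, a process that draws on ribose 5-phosphate, had a median of 0.23 with 13 of 15 measured members higher and 7 of them at an unadjusted p under 0.05 (limma), beside 50.1% and 4.39% of all genes. None passed the adjusted threshold, and Prim1, a primase subunit, and Mcm3, of the replicative helicase, had the smallest p, at 0.73 (SE 0.12) and 0.63 (SE 0.14). The 2 lower members, named after their values were seen, were Mki67 at -0.07 and Top2a at -0.02. This list was chosen with earlier results of these data known. In none of these 7 lists did a member pass an adjusted p of 0.05.

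**Figure D4:**
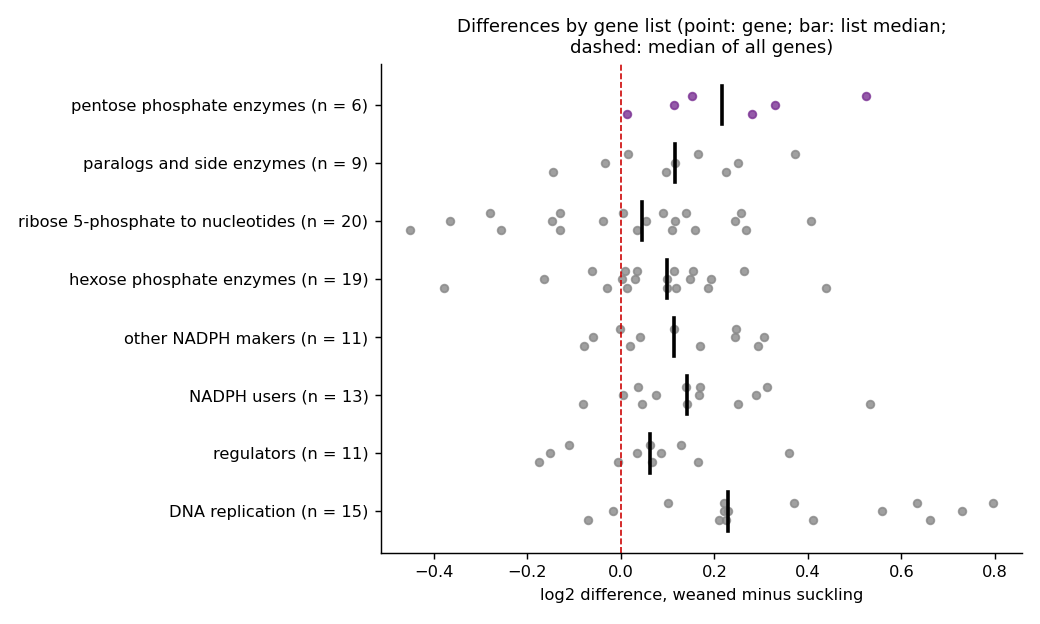
Log2 difference, weaned minus suckling (horizontal axis), of each measured gene (points) in 8 lists, with list medians as bars and the median of all genes dashed. List medians lie between 0.04 for ribose 5-phosphate use and 0.23 for DNA replication, with the pentose phosphate enzymes at 0.22.

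Across 17 alternative analyses, Pgd alone of the 6 enzymes changed sign, and the median of the 6 stayed between 0.18 and 0.27. None of the 6 passed an adjusted p of 0.05 in any of them (limma).

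**Figure D5:**
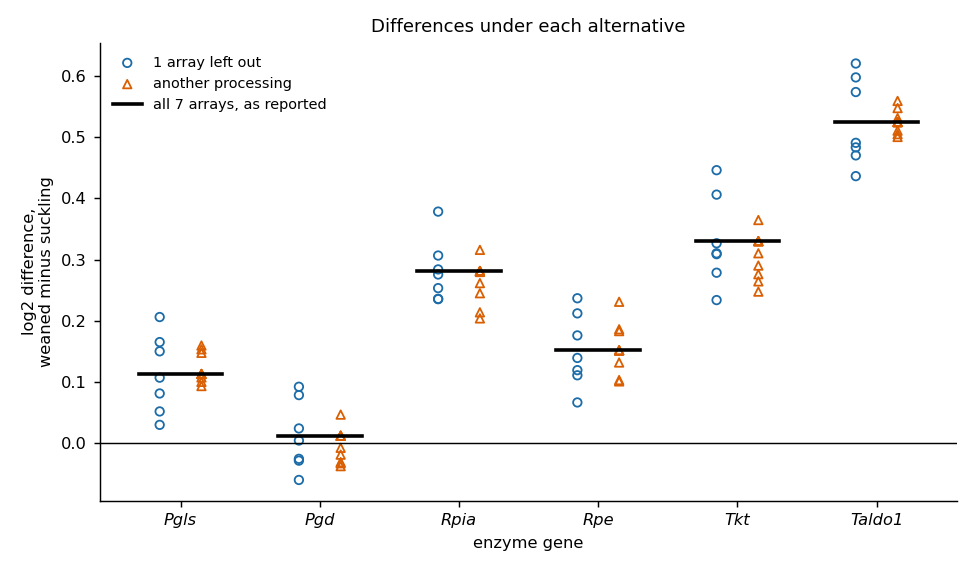
Log2 difference, weaned minus suckling (vertical axis), of the 6 enzymes with all 7 arrays (bar), with 1 array left out (circles) and under 10 other analyses (triangles). Taldo1 stays between 0.44 and 0.62, and Pgd lies on both sides of 0, from -0.06 to 0.09.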

How the data were processed

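Total RNA of sorted cells was amplified and hybridised with 1 array per mouse, per the labels' protocols. The deposited values are intensities on a linear scale (1.45 to 12755). The submitters' processing notes name RMA and Partek 6.6 as what the authors used for them. Background steps before RMA and its settings are not given in the sources used here, and RMA narrows differences of dim probe sets. Log2 was taken here. Of 35556 probe sets, 21789 name 1 gene, 1621 several and 12146 none, and 21698 were matched by gene ID to RefSeq symbols (GRCm38.p6). The brightest probe set stood for a gene. All 19938 genes were fitted with limma 3.58.1 in R 4.3.3 (lmFit, eBayes, no covariate, two-sided), checked on simulated data, with Benjamini-Hochberg adjustment and a threshold of 0.05. Intervals are 95% intervals of that fit. Whether mice came from separate litters is not stated.

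The members and gene lists were chosen with earlier results of these data known. Named were all members, all paralogs and side enzymes, and in each other list the members past the threshold or else the 2 with the smallest p, and the 3 genes most like the member with the smallest p. The motifs were chosen after the data were seen. Alternatives changed the variance prior, the normalization, the filter, the handling of probe sets, array weights, the acinar level and the arrays used.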

Additional observations from a re-analysis of the deposited data

Results flagged for a closer look

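Among the 27 genes named in the report that were checked for a suckling array far from the other suckling arrays, Pfas stood out. Suckling replicate 11 measured 5.33 log2 units beside 4.96 to 5.02 on the other suckling arrays, a gap of 0.844 of the group's range. Such gaps arise by chance in about 1 of 20 groups.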

How the results depend on the processing

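The number of genes past an adjusted p of 0.05 (limma) was 3 of 19938, 1 higher and 2 lower in weaned mice. It was 9 with an intensity trend and robust prior, 5 after quantile normalization, 7 without dim genes, 5 with probe sets of a gene averaged and 6 with arrays centred on their medians over all probe sets, an alternative chosen after seeing the data. It was 0 without suckling replicates 2 and 9 (with 1089 genes at an unadjusted p under 0.05) and 1 to 3 with 1 array left out. At an unadjusted p under 0.05, 875 genes were higher and 637 lower, a balance that depends on the scaling and the arrays. It was 1184 and 434 with the centring over all probe sets, 728 and 787 with the centring over genes, 557 and 575 with the acinar covariate, and 482 and 607 without suckling replicates 2 and 9. The median of the 6 enzymes moved by less than the spread between arrays. Pgd differed by -0.019 after quantile normalization, -0.0077 with arrays centred on their medians, -0.038 with array weights, -0.033 with the acinar covariate, -0.031 without suckling replicates 2 and 9 and -0.060 to 0.092 with 1 array left out. Of 21 other named genes, 3 changed sign. These were H6pd (-0.051 to 0.24 with 1 array left out), Pgm1 (0.0014 with the centring over all probe sets, -0.10 to 0.057 with 1 array left out) and Rbks (-0.035 after quantile normalization, -0.0044 with centred arrays, -0.0032 with array weights, -0.12 with the acinar covariate, -0.059 without suckling replicates 2 and 9, -0.19 to 0.16 with 1 array left out). The cause was not tested. The other 5 enzymes and 18 named genes kept their sign and their side of the threshold, while the genes most like Taldo1 and the medians of the other lists were not run under the alternatives. No paired analysis was possible because the groups share only 1 replicate number. Background correction could not be varied on processed values, and no slide or scan is given in the sources used here. The number of arrays limits the precision.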
